A study of Gallus gallus with 21 samples.

Results

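The genes described here stood far below their usual level in the same 2 of 21 RNA-sequencing libraries of chick trunk neural tube. They were selected on measured values. A gene became a member when its median level over 19 libraries was at least 10 CPM (the counts of a gene divided by all counts of its library, times 1000000) and its level was at most 1/8 of that median both in MOXD1 knockout (KO) replicate 8 and in control (CTRL) replicate 1. It also had to lie on chromosome 1 to 15, 17 to 28, 30 or 33, with at least 2 exon records, over 1000 bases of exon sequence and a span under 300000 bases. This gave 110 members, which is 1.38% of the 7996 genes that met the annotation limits and the level, out of 16690 genes that met the annotation limits and 24356 genes in the table.

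The study targeted MOXD1, whose product is related to the enzyme dopamine beta-hydroxylase, with CRISPR/Cas9 in the trunk neural crest of chick embryos. The KO group held 12 libraries with the genotype MOXD1 KO, and the CTRL group held 9 libraries with the genotype WT. All constructs were injected into the lumen of the neural tube at Hamburger Hamilton stages 10 to 11 and electroporated on one side of the embryo, so a KO library can mix edited and unedited cells. The sources used here give neither the stage at collection nor the construct given to CTRL embryos, nor the share of edited cells. Per library, the files held between 16346238 and 20970382 counts in KO and between 16164404 and 21133788 counts in CTRL. A value of 1 count was worth 0.0619 CPM in the shallowest library.

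As background, the neural tube is an epithelium of dividing progenitors along its lumen, with newly formed neurons at its outer edge, and neural crest cells emigrate from its dorsal edge to form peripheral neurons, glia, pigment cells and adrenal medulla. Messenger RNA from the whole dissected tissue is counted as a mixture. A lower level in such a bulk library can come from fewer cells of one type or from less RNA per cell, and these cannot be told apart here. The table gave Ensembl gene IDs without symbols, and 0 of 24356 IDs matched the gene list available for chicken. Members are therefore named by their position on the GRCg6a assembly, no function is given for any of them, and the tissue's marker genes and MOXD1 itself were not analysed here.

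The values that chose the members are given as a description only. In KO replicate 8 the members stood at a median of 3.70% of their 19-library median, with levels between 0.0538 and 673 CPM. In CTRL replicate 1 the median was 4.92%, with levels between 0 and 1179 CPM. A single member, on chromosome 3 from 57946046 to 57961623 on the plus strand, had 0 counts in CTRL replicate 1; it had 26 counts in KO replicate 8. Members under 1% of their median numbered 17 in KO replicate 8 and 18 in CTRL replicate 1, and 12 of them were the same genes. Of the 110 members, 63 were lower in KO replicate 8 and 47 were lower in CTRL replicate 1. Summed over the members, the level was 1674 CPM in KO replicate 8 and 2363 CPM in CTRL replicate 1, while the other 19 libraries ran from 21103 to 76955 CPM.

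The 1/8 limit fell in a continuous range. The 3 members nearest to it had a higher of their 2 shares of 0.121 (chromosome 12, 970285 to 981315, minus strand), 0.123 (chromosome 2, 138494790 to 138611280, minus strand) and 0.124 (chromosome 17, 3013995 to 3098173, minus strand). The 3 genes just outside stood at 0.126 (chromosome 17, 6375001 to 6378007, plus strand), 0.127 (chromosome 13, 16943722 to 17130245, plus strand) and 0.130 (chromosome 4, 49898196 to 49899818, minus strand). What follows rests on the 19 libraries that did not choose the members by their low values, 11 KO and 8 CTRL. Where values of the other 2 libraries are printed, they are a description only.

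**Figure D1:**
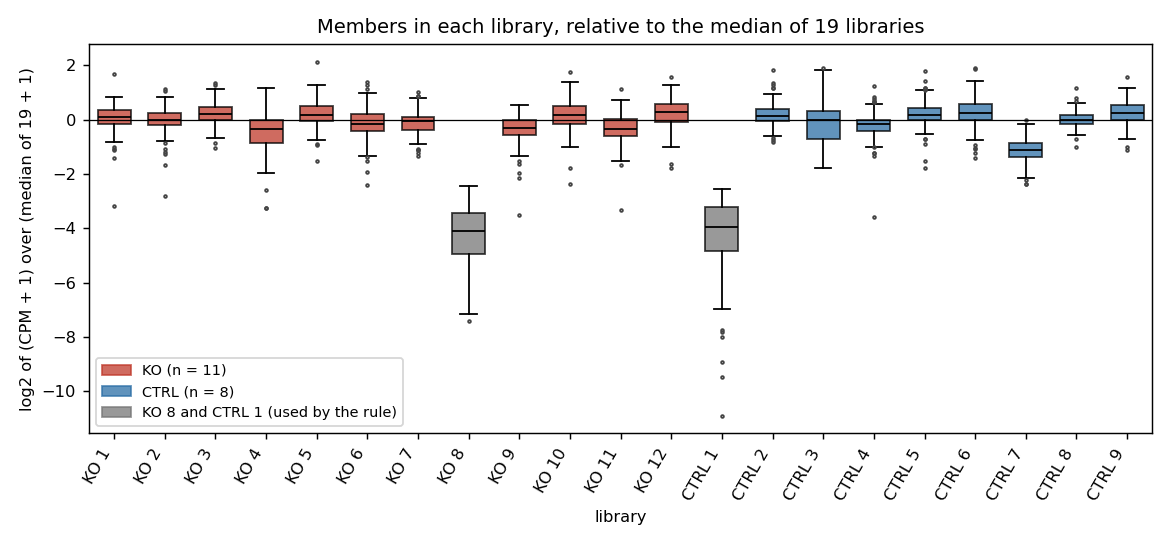
Distribution over the 110 members of log2 of (CPM + 1) relative to (19-library median + 1), one box per library, with KO libraries left of CTRL libraries. Boxes span the quartiles with the median as a line, whiskers reach 1.5 times the box height and points lie beyond them; KO replicate 8 and CTRL replicate 1, used by the rule, are grey, and CTRL replicate 7 has a median of -1.12 while the other 7 CTRL libraries lie between -0.15 and 0.24.

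A further control library stood apart among the 19, and it was singled out after its values were seen. Summed over the members, the level was 35796 CPM in the lowest, 49986 CPM in the median and 76955 CPM in the highest of 11 KO libraries. The same sum was 21103 CPM in the lowest, 53726.5 CPM in the median and 70868 CPM in the highest of 8 CTRL libraries. The lowest value belonged to CTRL replicate 7. The next lowest CTRL library had 49907 CPM, and every KO library was above CTRL replicate 7. Without CTRL replicate 7 the CTRL range lay inside the KO range.

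In CTRL replicate 7, 74 of the 110 members (67.3%) were at or below 0.5 times their 19-library median, against 2.15% of the 7996 genes of like annotation and level. It was the lowest of the 19 libraries for 62 of 110 members, against 5.08% of the 7996 genes. The members' levels there had quartiles of 36.1%, 45.4% and 53.7% of the 19-library median, and the lowest stood at 17.4% (chromosome 15, 1219854 to 1227550, plus strand). The same quartiles over the 7996 genes were 95.8%, 109% and 124%. The size of the shortfall differed between members, and 109 of 110 lay below their median in that library. The remaining one was at it (chromosome 1, 60296873 to 60354263, plus strand). With the median of the other 18 libraries in place of that of 19, the count at or below 0.5 times was 76, and with TMM-scaled library sizes it was 86.

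Smaller shortfalls were present in other libraries. KO replicate 4 had 25 of 110 members at or below 0.5 times their median, against 6.39% of the 7996 genes, and CTRL replicate 3 had 20 of 110, against 4.59%. The median log2 deviation of the members was -0.35 in KO replicate 4 and -0.01 in CTRL replicate 3. KO replicate 9 had 14, against 1.93%, and KO replicate 11 had 12, against 0.413%, with median log2 deviations of -0.29 and -0.33. The other 14 libraries had between 0 and 11 such members, where the share of the 7996 genes ran from 0.0750% to 5.39%. CTRL replicate 3 was extreme in both directions. It also had 10 members at or above 2 times their median, against 2.88% of the 7996 genes. It was the lowest of the 19 libraries for 12 of 110 members and the highest for 13 of 110. Both shares lay below those of the 7996 genes, 13.1% and 13.6%, so being lowest or highest there was not particular to the members.

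Several measures of the libraries were set beside the members' summed level, and their part in it was not tested. The 35 genes of like annotation that were at least 8 times their median in both libraries of the rule, and reached 10 CPM in both, summed to 1619 CPM in KO replicate 8 and 2238 CPM in CTRL replicate 1. In the 19 libraries they summed to between 39.2 and 551 CPM in KO and between 50.2 and 612 CPM in CTRL, with CTRL replicate 7 the highest. Over the 19 libraries, the log2 sums of the members and of these 35 genes had a Pearson r of -0.65 and a Spearman rho of -0.69. Pearson's r was -0.51 without the 2 farthest libraries, -0.59 without CTRL replicate 7, -0.69 within KO (n = 11) and -0.64 within CTRL (n = 8). Both sums come from the same libraries, and both gene sets were chosen on the same 2 other libraries, so no p is given.

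CTRL replicate 7 was not shallow: it held 20737363 counts. It had 13030 genes at 1 CPM or more, the most of the 8 CTRL libraries, whose other values ran from 12557 to 12935. Mitochondrial genes took 7.73% of its counts, inside the range of 6.72% to 14.3% in KO and 6.68% to 11.0% in CTRL. Over the 19 libraries the members' log2 sum had a Pearson r of -0.31 with the mitochondrial share (rho -0.56), of -0.31 with total counts (rho -0.14) and of -0.31 with the share of counts from chromosome W (rho -0.45). Without CTRL replicate 7 the r was -0.55, -0.18 and -0.25 in the same order. Within KO (n = 11) the r was -0.45, -0.38 and -0.41, and within CTRL (n = 8) it was -0.22, -0.26 and -0.30, again in that order. None of these relations was tested. The chromosome W share fell into 2 separate ranges, given below, so its r mainly contrasts those 2 groups of libraries.

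**Figure D2:**
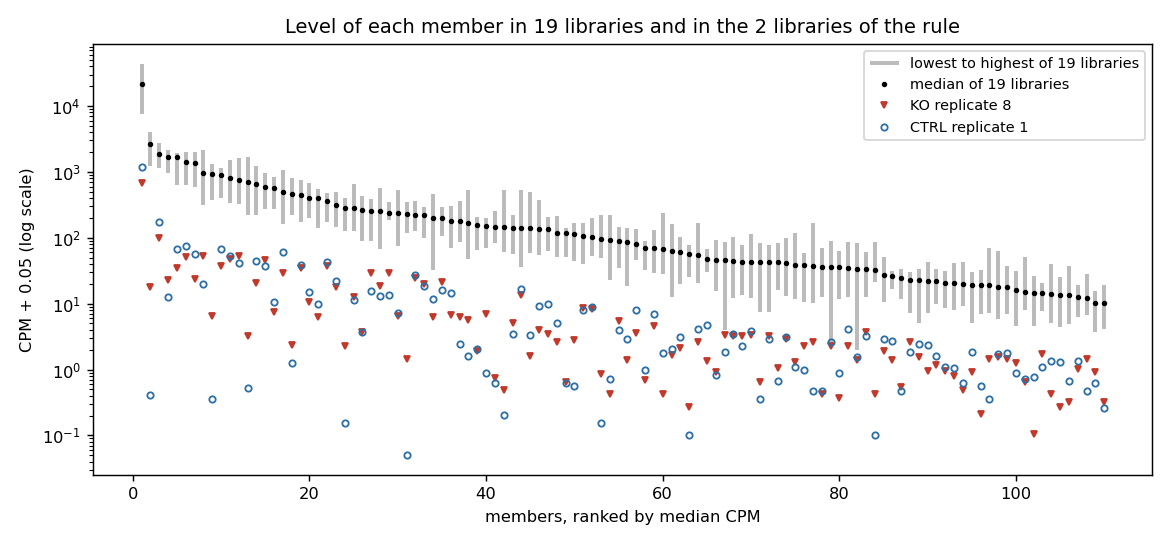
Level of each of the 110 members on a log scale of CPM + 0.05, ranked by median over 19 libraries; grey lines run from the lowest to the highest of the 19 libraries, black points are medians, red triangles are KO replicate 8 and open blue circles are CTRL replicate 1. Medians run down from 21616 CPM, and the distance from the medians to the 2 libraries of the rule varies widely between members.

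The members tended to be abundant genes, though not all were. Their median level over the 19 libraries was 87.4 CPM, with quartiles of 33.3 and 252 CPM, against 45.8 CPM with quartiles of 23.98 and 91.9 CPM over the 7996 genes. Per kilobase of exon, the medians were 36.5 CPM for the members and 16.4 CPM for the 7996 genes. In all, 52 members (47.3%) reached 100 CPM, against 22.9% of the 7996, and 7 of the 58 genes that reached 1000 CPM were members, while 17 members were under 20 CPM.

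A single gene held much of the members' sum. It lies on chromosome 33 from 7292614 to 7310596 on the plus strand, with 53 exon records and 4263 bases of exon, and its median of 21616 CPM (5071 CPM per kilobase) was the highest of the 7996 genes. It stood at 13736 CPM in the lowest, 21500.1 CPM in the median and 44103 CPM in the highest KO library, against 7613, 24640.3 and 32973 CPM in CTRL. The groups overlapped, with KO replicates 10 and 12 above every CTRL library and CTRL replicate 7 below every KO library. The gene made up between 36.1% and 57.3% of the members' sum in the 19 libraries, with a median of 44.2% in KO and 46.0% in CTRL. Without it, the other 109 members summed to 21486 CPM in the lowest, 28471 in the median and 35128 in the highest KO library, against 13490.1, 30386 and 37896 CPM in CTRL, so the low sum of CTRL replicate 7 was present without this gene.

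The next 5 members by level were also among the most abundant genes of the tissue. On chromosome 1, from 85383662 to 85470351 on the minus strand, a gene with 5 exon records had a median of 2616 CPM (631 CPM per kilobase) and ranged from 1239 to 4103 CPM over the 19 libraries. It fell furthest of these in CTRL replicate 1, where it had 0.364 CPM from 7 counts, and had 17.7 CPM in KO replicate 8. A second gene on chromosome 1 (173372443 to 173406135, plus strand, 160 exon records) had a median of 1877 CPM (435 CPM per kilobase).

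A gene on chromosome 3 (43047577 to 43055477, plus strand) had a median of 1712 CPM (548 CPM per kilobase), and its level ranged only from 975 to 2127 CPM over the 19 libraries. Genes on chromosome 23 (5019801 to 5030095, minus strand) and chromosome 8 (11693571 to 11741165, plus strand) had medians of 1693 CPM (621 CPM per kilobase) and 1391 CPM (522 CPM per kilobase). CTRL replicate 7 was the lowest of the 19 libraries for each of the 6 most abundant members. Their log2 fold changes, KO over CTRL, lay between -0.13 and 0.20, with adjusted p between 0.820 and 0.998 by edgeR's quasi-likelihood test with Benjamini-Hochberg adjustment.

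Beyond the limits of the rule, the members had fewer exon records and longer spans than the 7996 genes, with no test made. The median member had 11 exon records, 2622 bases of exon and a span of 26241 bases, against 15 records, 2725 bases and 16590 bases over the 7996 genes. The plus strand held 55 members (50%), against 50.1%. Genes with at least 30 exon records made up 17.3% of the members, against 25.4%. Exons of 6 members overlapped those of another gene on the same strand, where shared fragments were not counted, and 17 members had spans that overlapped another gene.

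The members were spread over 23 of the 29 chromosomes that the rule allowed. Chromosomes 1 to 4 held 54 of them (49.1%), against 38.2% of the 7996 genes, and chromosomes 11 and above held 33 (30%), against 38.5%. Chromosome 1 had 19 members among 1060 genes, and chromosome 11 had the largest share, 2.34% of 214 genes. No member lay on chromosomes 14, 24, 25, 26, 28 or 30, which together held 813 of the 7996 genes. Since the members were chosen on measured values and no chance test was made, these shares are given as a description.

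**Figure D3:**
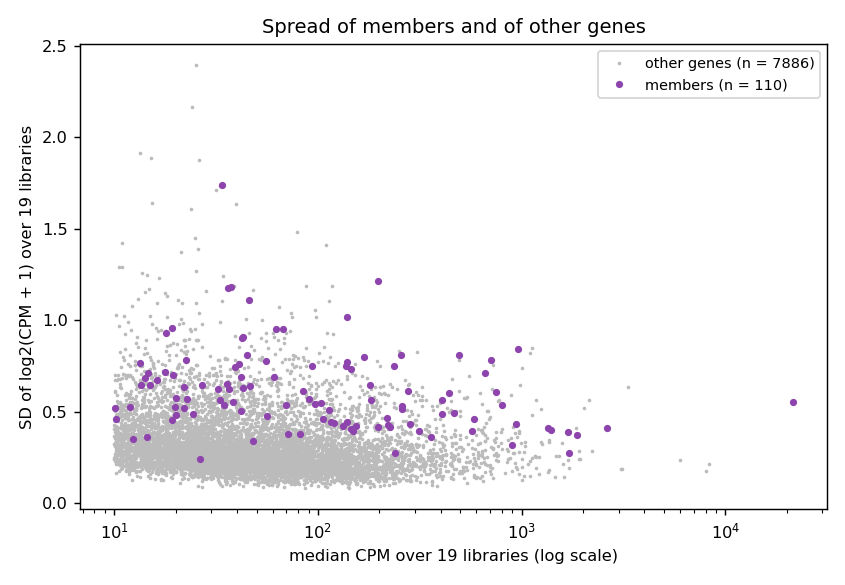
SD of log2(CPM + 1) over 19 libraries against median CPM on a log scale, for 110 members in purple and 7886 other genes of like annotation and level in grey. Most members lie in the upper part of the cloud at every level, with a median SD of 0.56 against 0.28 over all 7996 genes.

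The members had a wider spread between embryos than the 7996 genes, given as a description with no test. The median SD of log2(CPM + 1) over the 19 libraries was 0.56 for the members, with quartiles of 0.44 and 0.73, against 0.28, with quartiles of 0.21 and 0.39, for the 7996 genes. Of the 110 members, 99 (90%) had an SD above the upper quartile of the 7996 genes, and 3 had one below their median. The highest of the 19 libraries was a median of 4.75 times the lowest for the members, against 2.10 times for the 7996 genes. The wider spread was present in each group: the median SD was 0.51 in KO and 0.64 in CTRL for the members, against 0.26 in KO and 0.29 in CTRL for the 7996 genes. Without CTRL replicate 7 it was 0.44 in CTRL and 0.52 over 18 libraries, where the 7996 genes had 0.27.

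The 3 most variable members had different patterns. The most variable one, on chromosome 4 from 56248208 to 56292940 on the minus strand, had a median of 33.7 CPM and an SD of 1.74. Its libraries fell into 2 separate ranges. It had between 1.92 and 5.75 CPM, from 31 to 94 counts, in KO replicates 1, 2, 4, 10 and 11 and CTRL replicate 4, and between 29.1 and 83.0 CPM in the other 6 KO and 7 CTRL libraries. The gap between the ranges was 2.16 on the log2(CPM + 1) scale, and 1 of the 7996 genes, this one, had a gap as wide with at least 3 libraries on either side. CTRL replicate 7 was in the high range for this gene, with 86.2% of the 19-library median. The 2 libraries of the rule had 1.35 CPM (KO replicate 8) and 1.51 CPM (CTRL replicate 1). These values lay just below the low range, so low levels of this gene were not particular to those 2 libraries. The split was seen in the values and then described, and its groups are not groups of the study.

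The second most variable member, on chromosome 8 from 11602708 to 11637021 on the plus strand, had an SD of 1.21 and a median of 198 CPM. It stood at 32.3 CPM in the lowest, 124 CPM in the median and 456 CPM in the highest KO library, against 56.4, 240 and 425 CPM in CTRL. The third, on chromosome 4 from 37170329 to 37196424 on the minus strand, had an SD of 1.18 and a median of 37.3 CPM, with 10.9, 28.6 and 168 CPM in KO and 10.2, 41.3 and 141 CPM in CTRL. For both genes the groups overlapped, although in CTRL the gene on chromosome 4 stayed at or below 61.5 CPM apart from CTRL replicate 6. The log2 fold changes were -0.34 (SE 0.47) for the gene on chromosome 8 and 0.18 (SE 0.53) for the gene on chromosome 4.

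The 3 least variable members were as steady as an ordinary gene. They lie on chromosome 11 (14531508 to 14691257, minus strand), chromosome 4 (85064209 to 85229240, minus strand) and chromosome 3 (43047577 to 43055477, plus strand), with SDs of 0.24, 0.27 and 0.28. The gene on chromosome 11 ranged from 16.8 to 31.0 CPM over the 19 libraries, yet had 1.35 CPM in KO replicate 8 and 2.65 CPM in CTRL replicate 1. The rule made every member low in those 2 libraries, so their low values there are no result. The genes so chosen included some that were steady over the 19 libraries as well as variable ones.

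**Figure D4:**
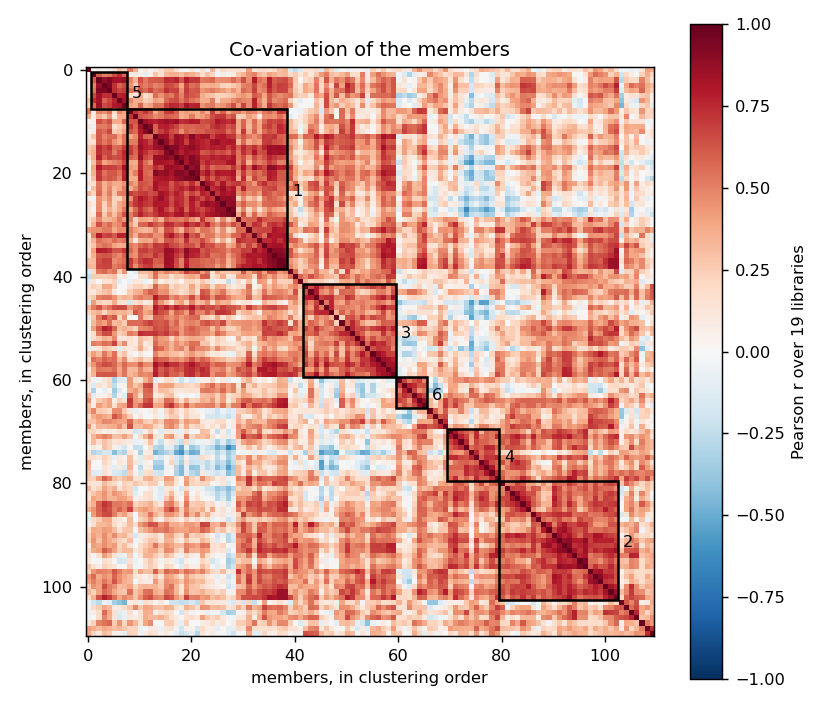
Pearson r of log2(CPM + 1) over 19 libraries for each pair of the 110 members, in the order of average-linkage clustering on 1 minus r, from blue (-1) over white (0) to red (1); black squares mark the 6 numbered sets of at least 6 members. Red prevails, and the pairs with the lowest r lie between sets 1 and 4 and between sets 3 and 4.

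The members tended to vary together. Over their 5995 pairs the median Pearson r across the 19 libraries was 0.37, with quartiles of 0.17 and 0.56, against a median of 0.03 over all pairs of the 7996 genes. Pairs with a negative r made up 10.9% of the members' pairs, against 47.6%, and pairs above 0.7 made up 8.32%, against 4.30%. The points of a pair share the library, its depth and its composition. CTRL replicate 7, low for nearly all members, carried much of this: without it the median r was 0.20 over 18 libraries, against 0.02 for the 7996 genes. Without it, pairs above 0.7 made up 4.62% of the members' pairs, against 4.49%, so no excess of such close pairs was seen, and negative pairs made up 27.9%, against 48.2%. Within the 11 KO libraries, which do not include it, the median r was 0.25, against 0.03, and pairs above 0.7 made up 9.14%, against 8.64%. Within CTRL it was 0.56 over 8 libraries and 0.15 over the 7 without CTRL replicate 7.

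The first principal component of the standardised members held 39.2% of their variance, against 30.0% for the 7996 genes, and 109 of 110 members had the same sign on it. Its scores ran from -20.8 in CTRL replicate 7 to 6.32 in KO replicate 12, and the next lowest was KO replicate 4 at -7.25. CTRL replicate 7 thus weighed heavily on this component. No component was computed without it, so the larger share of variance and the common sign may largely reflect that library. The member with the other sign lies on chromosome 9 from 4765436 to 4777129 on the minus strand. The second component held 16.6% of the variance, against 18.2% for the 7996 genes.

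Clustering by correlation, with sets cut at an average r of 0.5, gave 6 sets of at least 6 members that held 95 of the 110 members. They differed in the libraries where they were high or low. The largest set had 31 members on 12 chromosomes, the gene on chromosome 33 among them, with a median r within the set of 0.66. Its median log2 deviation was -1.09 in CTRL replicate 7, -0.80 in KO replicate 4 and -0.55 in KO replicate 9, and it was highest in KO replicate 10 at 0.71, KO replicate 12 at 0.59 and CTRL replicate 6 at 0.55. All 31 members were above their median in KO replicate 10.

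The second set had 23 members (median r 0.64), at -1.14 in CTRL replicate 7 and -0.54 in KO replicate 11 and highest in KO replicate 5 at 0.52. The third had 18 members (median r 0.58) that were lowest in CTRL replicate 7 at -1.31 and in CTRL replicate 3 at -0.84. In these 2 control libraries all 18 were below their median. The fourth set, of 10 members, went the other way in CTRL replicate 3: it was highest there, at 0.96, with all 10 above their median, and it was lowest in KO replicate 11 at -1.19 and in CTRL replicate 7 at -0.96.

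The fifth set, of 7 members with the highest median r (0.74), had 3 low libraries, CTRL replicate 7 at -1.74, KO replicate 4 at -1.41 and KO replicate 9 at -1.35, with all 7 members below their median in each. The sixth set had 6 members (median r 0.67) and was lowest in KO replicate 6, at -0.98; CTRL replicate 7 was not among its 3 lowest libraries. CTRL replicate 7 was thus the lowest or second lowest library in 5 of the 6 sets, while the other low libraries changed from set to set. The sets were formed on these same values and are a description.

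The 4 most closely correlated pairs lay on different chromosomes. The closest pair joined the member on chromosome 8 from 11693571 to 11741165 with one on chromosome 20 from 8340728 to 8372146 (plus strand), with a Pearson r of 0.97, a Spearman rho of 0.96 and an r of 0.94 without the 2 farthest libraries. The first ranged from 633 to 1980.1 CPM and the second from 588 to 1979.7 CPM, both lowest in CTRL replicate 7 and highest in CTRL replicate 6. They had 522 and 535 CPM per kilobase, so they were alike in level as well.

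The next pair was on chromosome 2 (66892969 to 66897037, plus strand) and chromosome 11 (17392339 to 17395059, minus strand), with an r of 0.94 that was 0.86 without the 2 farthest libraries. A gene on chromosome 1 (60296873 to 60354263, plus strand) and the variable gene on chromosome 8 from 11602708 had an r of 0.94. The fourth pair, on chromosome 1 (186760966 to 186767598, minus strand) and chromosome 22 (1351044 to 1386815, plus strand), had an r of 0.93, with both genes lowest in KO replicate 4 and highest in KO replicate 12. The lowest r among all pairs was -0.64, between the gene on chromosome 1 from 60296873 and one on chromosome 13 from 14032708 to 14037944 (minus strand).

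Members that neighbour each other ranged from unrelated to closely related in level over the libraries. In 6 cases 2 members lay within 200000 bases of each other. The closest without overlap, on chromosome 1 from 60296873 to 60354263 (plus strand) and from 60359915 to 60404116 (minus strand), were 5651 bases apart and had an r of -0.21. A pair on chromosome 9 (4765436 to 4777129 and 4921468 to 4924316, both minus strand), with 144338 bases and 11 gene starts between them, had an r of 0.75. The pair on chromosome 8 from 11602708 and 11693571, 56549 bases apart on the plus strand, had an r of 0.48.

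Neighbours on chromosome 4 (84851297 to 84898911 and 85064209 to 85229240) and on chromosome 20 (4974113 to 4980108 and 5162754 to 5167745) both had an r of -0.01. The remaining pair, on chromosome 10 (12079844 to 12100380 and 12097214 to 12107184), overlapped by 3167 bases on the plus strand and had an r of 0.55. Counts of overlapping genes on one strand are uncertain.

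**Figure D5:**
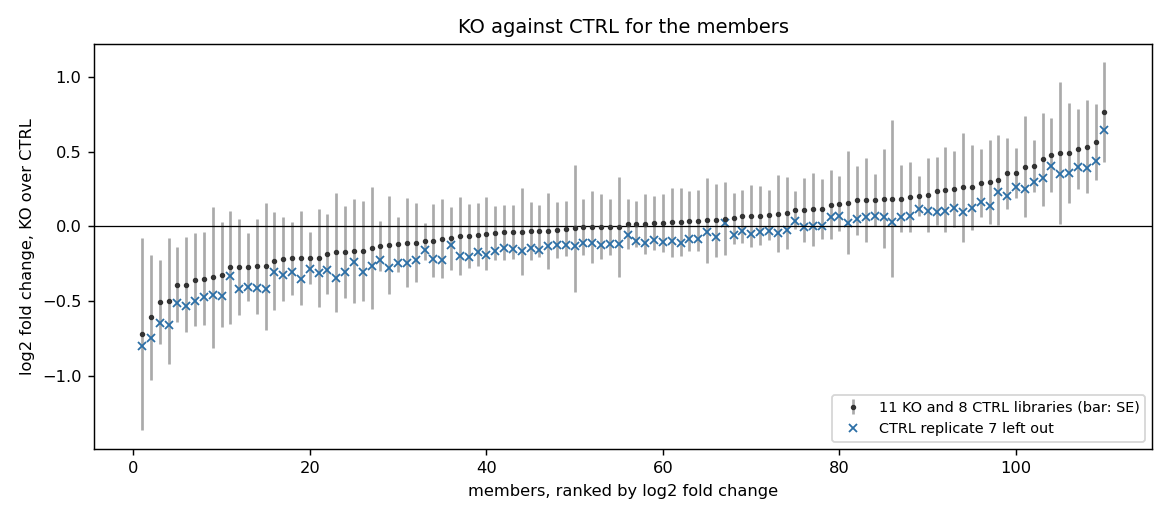
log2 fold change, KO over CTRL, of the 110 members, ranked; black points are the fit on 11 KO and 8 CTRL libraries with bars of 1 SE, and blue crosses are the fit with CTRL replicate 7 left out. Fold changes run from -0.72 to 0.76 with as many above 0 as below, and most crosses lie below their point.

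The comparison of KO with CTRL asked what changes when MOXD1 is lost from trunk neural crest cells not yet committed to a lineage, and no member passed the test. Among 13805 genes tested in 11 KO and 8 CTRL libraries with edgeR's quasi-likelihood test and Benjamini-Hochberg adjustment, 0 (0%) were called at an adjusted p under 0.05. The lowest adjusted p of any gene was 0.808. All 110 members were tested, and 0 were called. DESeq2 called 0 of 20830 genes. At an unadjusted p under 0.05, edgeR listed 4 members (3.64%), against 5.93% of all genes tested. All 4 were higher in KO, the direction of 2.73% of all genes tested. With 4 members listed, neither share lies far from its background.

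The members' fold changes centred on no difference. Among the 7996 genes, 3960 were higher in KO. Of the 110 members, 55 were higher and 55 lower in KO. Their median log2 fold change was 0.01, with quartiles of -0.13 and 0.17, against -0.002 with quartiles of -0.11 and 0.09 for the 7996 genes. The median SE was 0.25 for the members, against 0.13, so single members were measured less precisely. In this fit the 95% interval of the fold change lay within 2-fold either way for 89 members, and within 1.5-fold for 42. It came from the t distribution with the degrees of freedom of the fit (21.1). These are intervals of single genes, not adjusted for the 110 members. They were not counted over the 7996 genes, without CTRL replicate 7 or with a covariate, so they are a description only. For 0 of 110 members, and for 0 (0%) of the 7996 genes, were all KO libraries on one side of all CTRL libraries.

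CTRL replicate 7 moved this split. Without it, 36 members were higher and 74 lower in KO, while 3980 of the 7996 genes were higher. The members' median log2 fold change was then -0.11, against -0.001 for the 7996 genes, and 0 of 13867 genes were called. In that fit 3 members had an unadjusted p under 0.05, all lower in KO, among 926 genes of 13867. No direction is drawn from either split. Libraries with hardly any counts from chromosome W, between 0.00202% and 0.00455%, numbered 5 of 11 in KO and 1 of 8 in CTRL, while the other 13 libraries had between 0.180% and 0.239%. Chromosome Z took 2.97% to 3.24% of the counts in the 6 libraries and 1.83% to 2.30% in the 13. The groups were therefore not balanced in their sex chromosome counts, and the main fit had group as its only term. The members summed to a median of 55457 CPM in the 6 libraries, with a range of 37856 to 76955 CPM. In the 13, which include CTRL replicate 7, the median was 49986 CPM, with a range of 21103 to 70868 CPM. The 2 ranges overlapped widely. The part of the unbalanced sex chromosome counts in the comparison was tested only with the W share as a covariate. In that fit 40 members were higher and 70 lower in KO, while 4012 of the 7996 genes were higher, and 0 genes were called.

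The sets leaned in different directions in the fit on 19 libraries, where 3960 of the 7996 genes were higher in KO. The sets were formed on the values of these same libraries, so members of a set tend to share a sign by construction. The counts below are a description only. In the largest set 6 of 31 members were higher in KO, with a median log2 fold change of -0.05. In the third set 17 of 18 were higher, with a median of 0.22. In the fourth set 3 of 10 were higher, with a median of -0.18, and in the sixth 1 of 6, with a median of -0.17. The second set had 13 of 23 (median 0.02) and the fifth 5 of 7 (median 0.26). Without CTRL replicate 7 the medians were -0.17, -0.10, 0.09, -0.30, 0.10 and -0.26 in the sets from the largest to the sixth. The members higher in KO then numbered 3 of 31, 4 of 23, 14 of 18, 2 of 10, 5 of 7 and 0 of 6, so the second set leaned the other way without this library. Members of a set share the same libraries, so they are not replicates, and 1 or a few libraries can set the sign of a whole set. The third set was low in both CTRL replicate 7 and CTRL replicate 3. Without CTRL replicate 7 its median was smaller, 0.09 against 0.22. The set was not summarised without CTRL replicate 3, so the part of that library in its lean was not tested.

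The members that came nearest to a call, by unadjusted p, show how far the groups overlapped. ENSGALG00000007837, on chromosome 6 from 24015945 to 24019958 on the minus strand, stood at 95.005 CPM in the lowest, 157 CPM in the median and 205 CPM in the highest KO library, against 61.9, 123 and 180 CPM in CTRL. Of the 11 KO libraries, 9 were above the CTRL median, and CTRL replicate 7 was the lowest of all. Its log2 fold change was 0.41 (SE 0.17), with an unadjusted p of 0.0296 and an adjusted p of 0.808 by edgeR's quasi-likelihood test; without CTRL replicate 7 it was 0.30.

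ENSGALG00000037467, on chromosome 9 from 1255143 to 1289866 on the plus strand, stood at 5.94 CPM in the lowest, 16.7 CPM in the median and 36.6 CPM in the highest KO library, against 4.92, 8.89 and 21.5 CPM in CTRL. This was the largest fold change among the members, 0.76 on the log2 scale (SE 0.33, unadjusted p = 0.0321, adjusted p = 0.808 by edgeR's quasi-likelihood test), and 9 of 11 KO libraries were above the CTRL median. The other members listed at an unadjusted p under 0.05 lie on chromosome 7 (30340176 to 30422024, minus strand, log2 fold change 0.56) and chromosome 5 (37377807 to 37382222, minus strand, log2 fold change 0.36), and in each case 10 of 11 KO libraries exceeded the median of CTRL.

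In the other direction, ENSGALG00000039334, on chromosome 5 from 939736 to 975245 on the minus strand, stood at 5.26 CPM in the lowest, 10.9 CPM in the median and 15.7 CPM in the highest KO library, against 4.44, 15.2 and 25.5 CPM in CTRL. Only 1 of 11 KO libraries was above the CTRL median. Its log2 fold change was -0.51 (SE 0.28, unadjusted p = 0.0872, adjusted p = 0.808 by edgeR's quasi-likelihood test), and without CTRL replicate 7 it was -0.65, with an adjusted p of 0.714.

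ENSGALG00000011663, on chromosome 3 from 45891575 to 45929214 on the minus strand, stood at 126 CPM in the lowest, 270 CPM in the median and 379 CPM in the highest KO library, against 142, 306 and 655 CPM in CTRL. The highest CTRL value was that of CTRL replicate 6. Its log2 fold change was -0.39 (SE 0.25, unadjusted p = 0.133, adjusted p = 0.816 by edgeR's quasi-likelihood test). For each of these genes the 2 groups overlapped.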

How the data were processed

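Messenger RNA was sequenced from the trunk neural tube of 12 KO and 9 CTRL embryos, grouped by the sample titles. Per the labels' protocols, libraries were made with a stranded mRNA kit from 50 ng of total RNA with 14 cycles of final PCR. No molecular identifiers are named, so fragments need not be independent molecules. Per the file headers, the deposited raw counts are fragments per gene, which the authors counted over exons on the reverse strand with featureCounts 2.0.1, on the Ensembl annotation of GRCg6a (release 101). Further tools, per the submitters' processing notes, were DESeq2, MultiQC, STAR, FastQC and bcl2fastq; the sources used here state no versions of them. The table held 0 other value columns per library and 0 rows without a gene ID. The design text of the series speaks of embryos, so libraries were taken as separate embryos. Total counts ran from 16164404 to 21133788.

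Members were found by CPM on plain column sums. SDs and correlations used log2(CPM + 1). Groups were compared on 11 KO and 8 CTRL libraries, since the rule used the other 2, with edgeR 4.0.16 (R 4.3.3): filterByExpr, TMM factors, group as the only term, the 2-sided quasi-likelihood F test and Benjamini-Hochberg adjustment over all 13805 genes at a threshold of 0.05. The SE of a fold change is the absolute coefficient over the square root of F. Fold changes are KO over CTRL. DESeq2 1.42.0 was an alternative.

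The test was tried on simulated counts for this comparison, in 3 runs over 13805 genes. Among genes changed 1.5-fold it called 38.7%. The share was 73.3% for 2-fold, 71.3% for 0.5-fold and 97.3% for 4-fold changes. Of 40815 genes left unchanged, 26 were called. The changed genes were drawn from all genes with a mean of 1 CPM or more, and no effect shared by the genes of a library was simulated. The members' median SE was 0.25, against 0.13 for the 7996 genes, so these shares cannot be carried over to the members. Libraries of a group were compared in pairs for duplicates, over genes with at least 20 counts; chi-square divided by its degrees of freedom was 29.2 or more, far above sampling noise.

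The members and lists were chosen with earlier results of these data known. Members are named by this rule: the 6 with the highest median CPM, the 3 with the largest and the 3 with the smallest SD, any past the threshold, the 2 with the smallest p in each direction, the 4 pairs with the highest correlation, the 3 genes on either side of the 1/8 limit, and neighbours within 200000 bases. Others were named after their values were seen. Gene IDs could not be paired with symbols, so the marker lists planned for the tissue and the level of MOXD1 were not analysed here. Alternatives were other scalings, filters and tools, covariates, other limits of the rule and leaving out each library.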

Additional observations from a re-analysis of the deposited data

Results flagged for a closer look

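Values of the 8 CTRL libraries were examined for a library far from the others of its group. Of 22 values examined, 8 had such a library, and 7 of these were CTRL replicate 7. A library was flagged when its gap to the next value, divided by the range (Dixon's rule), exceeded 0.526. For independent normal values this flags about 1 in 20 by chance. Counts of members are not normal, and the values are not independent, since they describe overlapping genes. The number of flags is therefore not set against that share, and the 7 flags of CTRL replicate 7 largely restate that its members were low.

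The members' summed level was 21103 CPM in CTRL replicate 7, while the other CTRL libraries had 49907 to 70868 CPM. The median log2 deviation of the members was -1.12 there, against -0.15 to 0.24 in the others. The number of members at or below 0.5 times their 19-library median was 74, against 0 to 20. The number for which the library was the lowest of 19 was 62, against 0 to 12. Among single members, the gene on chromosome 33 from 7292614 stood at 7613 CPM, against 21503 to 32973 CPM. The gene on chromosome 1 from 85383662 stood at 1239 CPM, against 2516 to 3388 CPM. The gene on chromosome 23 from 5019801 stood at 624 CPM, against 1470.3 to 1874 CPM. The other flag was a high one: the gene on chromosome 4 from 37170329 stood at 141 CPM in CTRL replicate 6, against 10.2 to 61.5 CPM in the other CTRL libraries.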

How the results depend on the processing

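The count of members and of genes past the threshold was 0 under each of the 29 alternatives run. The count of the 110 members with an unadjusted p under 0.05 was 4 on the 19 libraries, among 819 of 13805 genes tested. It was 0 on all 21 libraries (among 977 of 13809 genes). With the W share as a covariate it was 1 (among 452 of 13805 genes). With the mitochondrial share as a covariate it was 2 (among 530 of 13805 genes). Leaving out 1 library at a time it ran from 0 (without KO replicate 5, among 623 of 13782 genes) to 7 (without KO replicate 11, among 864 of 13735 genes). The count of members higher in KO, 55 of 110, ran from 36 (without CTRL replicate 7) to 68 (without CTRL replicate 6). In these 2 fits 3980 and 3937 of the 7996 genes were higher. Among all genes, the count at an unadjusted p under 0.05 ran from 452 with the W share as a covariate to 2309 with the replicate block. The cause of these changes was not tested. The 6 genes listed by smallest p in each direction, or at an unadjusted p under 0.05, kept their direction under 29 of 29 alternatives, with adjusted p from 0.284 to 0.997. With a limit of 1/4 of the median in place of 1/8 the rule gave 212 members, and with 1/16 it gave 57, by construction. The median SD of the members ran from 0.52 to 0.57, and their median pairwise r from 0.20 (without CTRL replicate 7) to 0.41 (TMM-scaled CPM).

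With a replicate block, 8 of 110 members had an unadjusted p under 0.05, among 2309 of 13805 genes tested, and 0 genes were called. The labels give both groups replicate numbers, but pairing by these numbers was not established. The correlation of deviations within the 7 same-numbered pairs ran from -0.480 to 0.470 and was over 0.1 in 4 pairs. Of 7 libraries, 2 correlated best with their own number. Such correlations cannot show whether same-numbered libraries were handled together. The descriptions and column headers carry other numbers, and a block on these was added after the data were seen. It listed 5 of 110 members at an unadjusted p under 0.05, among 900 of 13805 genes tested, with 0 genes called. Its 7 pairs had correlations from -0.433 to 0.470, over 0.1 in 5 pairs, so pairing by these numbers was not established either. The lowest median count of any member over the 19 libraries was 186, although the gene on chromosome 4 from 56248208 had 31 counts in CTRL replicate 4. Since fragments need not be independent molecules, these counts do not give the size of the counting error.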
